A study of Mus musculus with 13 samples.

Results

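The D-type cyclins Ccnd1, Ccnd2 and Ccnd3, the CDK inhibitors Cdkn1a, Cdkn1b and Cdkn2a, the MYC family genes Myc and Mycn, and Trp53 with its inhibitor Mdm2 were followed through the cells of developing mouse skin. They are 10 of the 27998 genes counted, and all 10 were present. They were taken by symbol and by no threshold on their values, but with earlier results of these data known. Skin of C57BL/6 mice was profiled by droplet single-cell RNA sequencing at E14.5, at E16.5 and at P0, in wild type (WT) animals and in Grhl3-/- animals, which lack the transcription factor GRHL3 in every cell from conception and have spina bifida, the skin being taken anterior to the lesion. Each age and genotype has 2 libraries, which by the study's methods come from 1 male and 1 female littermate, and these 12 libraries were made with version 2 of the Chromium chemistry. One further WT library at P0, made with version 1, has no partner and entered no test. The embryonic libraries hold whole dorsal skin and the P0 libraries hold epidermis alone. By the study's methods, embryonic skin was kept in the enzyme Dispase for 2 hours and P0 skin overnight. Age, tissue and digestion thus changed together between E16.5 and P0.

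D-type cyclins bind the kinases CDK4 and CDK6 in G1 phase and start the phosphorylation of RB, which frees the E2F factors that turn on genes for DNA synthesis. The inhibitors encoded by Cdkn1a and Cdkn1b act on cyclin-kinase complexes, Cdkn2a encodes both an inhibitor of CDK4 and CDK6 and, from another reading frame, a protein that restrains MDM2, and MYC and N-MYC drive growth and ribosome production. The protein p53 responds to DNA damage and other stress, with Cdkn1a and Mdm2 among its best known target genes, and MDM2 marks p53 for destruction. In the epidermis, dividing cells sit mainly in the basal layer and leave the cell cycle as they move up. The amount of p53 protein is set largely after translation, and a transcript count says nothing of it.

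The 13 libraries held 86507 cells after filtering. The embryonic libraries had 5267 to 8704 cells each with a median of 7473 to 8901.5 transcript molecules (UMIs) per cell, and the P0 libraries of version 2 had 6589 to 9157 cells with 7448 to 9976. Pairs of version 2 libraries had 0.608% to 1.57% of the smaller library's barcodes in common, and the version 1 library had none in common with them. Clusters were named from marker genes, and the names below therefore mean basal-like, suprabasal-like and so on. Basal cells carried Krt14, Krt5 and Col17a1, suprabasal cells Krt1, Krt10 and Krtdap, and follicle cells the markers of the outer follicle, of the matrix and inner sheath or of the upper follicle. Cells left without a name made up 12.4% at E14.5, 17.5% at E16.5 and 7.37% at P0. Levels are given as CPM, the UMIs of a gene per 1000000 UMIs of all genes, summed over the cells of a class in a library. These class sums held 991331 to 20376628 UMIs for basal, 1309768 to 11448076 for suprabasal and 292864 to 55304223 for follicle cells. Grhl3 was at 26.5 and 25.9 CPM in the WT suprabasal sums at P0 and at 7.12 and 9.70 CPM in those of Grhl3-/-. At E16.5 it was at 38.3 and 37.8 CPM against 19.5 and 15.3 CPM, and at E14.5 at 87.2 and 105 CPM against 61.9 and 63.2 CPM. Transcripts of the targeted gene were thus lower in every Grhl3-/- suprabasal sum than in both WT sums of its age but not absent, and whether the counted transcripts cross the deleted part was not tested. Other classes varied with age. Basal cells had 12.1 and 12.2 CPM in WT and 4.96 and 4.59 in Grhl3-/- at E14.5. At E16.5 they had 4.50 and 4.64 CPM in WT and 4.38 and 3.55 in Grhl3-/-. At P0 they had 4.24 and 3.50 CPM in WT and 1.03 and 1.53 in Grhl3-/-. Follicle cells had 9.48 and 5.21 CPM in WT and 4.26 and 3.89 in Grhl3-/- at E16.5. Their levels at P0 were 5.08 and 7.60 CPM in WT and 3.00 and 3.13 in Grhl3-/-. In the follicle of E14.5 the genotypes overlapped, at 20.9 and 45.8 CPM in WT and 17.1 and 26.1 in Grhl3-/-.

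For 7 of the 10 genes a promoter sequence of the annotated transcription start was at hand, in RefSeq on GRCm38, with 10 starts in all. The 5 shown belong to Cdkn1a, Mdm2, Mycn and Trp53, on which the comparisons of p53 with its targets and of the follicle with other cells turn, and each is the 250 bases before the start, 5′ to 3′ on the strand of the gene. Capitals mark matches on either strand to the E-box CACGTG, the E2F site TTTCGCGC or TTTGGCGC, the GC box GGGCGG and the p53 response element, the last allowing 1 mismatch in its 20 bases.
Cdkn1a, upper start, chr17:29090729-29090978, plus strand: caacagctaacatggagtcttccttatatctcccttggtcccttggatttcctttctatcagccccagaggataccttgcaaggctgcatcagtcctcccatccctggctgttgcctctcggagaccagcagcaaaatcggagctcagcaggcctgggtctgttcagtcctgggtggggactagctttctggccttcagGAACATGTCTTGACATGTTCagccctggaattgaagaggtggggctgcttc
Cdkn1a, lower start, chr17:29093519-29093768, plus strand: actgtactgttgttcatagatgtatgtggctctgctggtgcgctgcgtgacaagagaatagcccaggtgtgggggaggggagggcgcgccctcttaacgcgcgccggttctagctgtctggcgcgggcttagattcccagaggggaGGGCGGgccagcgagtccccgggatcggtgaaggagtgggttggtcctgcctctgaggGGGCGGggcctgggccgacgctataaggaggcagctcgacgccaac
Mdm2, chr10:117710759-117711008, minus strand: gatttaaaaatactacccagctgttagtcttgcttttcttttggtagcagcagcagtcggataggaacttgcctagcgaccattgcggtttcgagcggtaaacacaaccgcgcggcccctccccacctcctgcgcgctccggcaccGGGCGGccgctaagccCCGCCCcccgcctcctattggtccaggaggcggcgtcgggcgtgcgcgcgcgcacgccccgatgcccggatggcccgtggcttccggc
Mycn, chr12:12941837-12942086, minus strand: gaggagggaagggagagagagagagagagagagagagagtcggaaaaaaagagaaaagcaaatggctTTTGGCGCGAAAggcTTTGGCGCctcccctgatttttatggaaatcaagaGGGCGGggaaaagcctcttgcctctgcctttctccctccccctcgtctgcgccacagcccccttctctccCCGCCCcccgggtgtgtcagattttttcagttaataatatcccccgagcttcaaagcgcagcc
Trp53, chr11:69580109-69580358, plus strand: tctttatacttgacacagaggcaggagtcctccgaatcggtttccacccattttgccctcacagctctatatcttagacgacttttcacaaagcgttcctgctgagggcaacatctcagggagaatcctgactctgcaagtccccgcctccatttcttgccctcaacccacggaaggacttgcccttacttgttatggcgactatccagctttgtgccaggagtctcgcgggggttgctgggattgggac

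The upper start of Cdkn1a held 1 match to the p53 response element, with 1 mismatch, beginning 51 bases before the start. Such a match was found in 0.0761% of the 32851 promoter sequences of the same kind. The lower start of Cdkn1a, 2790 bases further along chromosome 17, held 2 GC boxes, and the single Mdm2 window held 2 GC boxes as well. A GC box was present in 32.7% of all windows. The Mycn window held 3 matches to the E2F site, beginning 183, 179 and 168 bases before the start with the first pair overlapping, where 0.654% of all windows held any, and 2 GC boxes. The Trp53 window held none of these motifs. No E-box, present in 6.02% of all windows, was found in the windows of the 7 genes. These matches describe letters only and are not shown to be binding sites. Sites outside these windows, in Mdm2 or any other gene, were not searched for. Promoters of Ccnd1, Ccnd2 and Myc were not analysed here.

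Cdkn1a, Myc and Mdm2 were higher in suprabasal than in basal cells, Ccnd1, Ccnd2, Cdkn1b, Mycn and Trp53 were lower, and Ccnd1 and Mycn were highest in the follicle of the 3 epithelial classes. All 9 members that could be tested differed between suprabasal and basal cells (edgeR's quasi-likelihood test on class sums with the library as a block, Benjamini-Hochberg adjustment over all genes, threshold 0.05), where 64.0% of all genes tested did. Between follicle and basal cells 5 of 9 differed, where 27.6% of all genes did. The genes described here were kept out of the genes used for clustering. Cdkn2a was too rare to pass the filter on low counts, and without that filter 10 of 10 passed between suprabasal and basal cells.

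Cdkn1a (ENSMUSG00000023067, GRCm38 chromosome 17, bases 29090976 to 29100727) had the steepest rise into the suprabasal layers. Its level over the 12 libraries ran from 1.01 to 203 CPM with a median of 25.2 in basal cells, and from 89.7 to 546 CPM with a median of 288 in suprabasal cells. The suprabasal sum was the higher in 12 of 12 libraries (log2 difference 3.15 ± 0.36, adjusted p = 2.31e-06). In basal cells of WT its level was 1.01 and 3.18 CPM at E14.5, from 1 and 6 UMIs, 24.8 and 25.7 at E16.5 and 172 and 203 at P0. In WT suprabasal cells it was 128 and 149.5, 376 and 339 and 315 and 546 CPM at the same ages. The follicle and basal levels gave no call over the 12 libraries (0.21 ± 0.31, adjusted p = 0.684), but their order differed with age. In WT at E14.5 the follicle sums, at 11.9 and 21.7 CPM on few molecules, lay above both basal sums. At P0 those of WT, at 105 and 105 CPM, lay below both.

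Myc (ENSMUSG00000022346, GRCm38 chromosome 15, bases 61985391 to 61990374) was likewise higher above the basal layer. It ran from 7.70 to 42.6 CPM with a median of 22.3 in basal cells and from 22.8 to 70.2 CPM with a median of 41.6 in suprabasal cells, and was higher in the suprabasal sum of 12 of 12 libraries (1.24 ± 0.17, adjusted p = 1.72e-05). In the follicle it ran from 2.50 to 20.7 CPM with a median of 7.99, below the basal sum in every library (-1.75 ± 0.16, adjusted p = 6.99e-07). Mycn (ENSMUSG00000037169, GRCm38 chromosome 12, bases 12936093 to 12941914) had the opposite order. Its follicle level ran from 6.83 to 61.9 CPM with a median of 33.4, its basal level from 1.06 to 20.3 CPM with a median of 4.74 and its suprabasal level from 0 to 3.65 CPM with a median of 0.924. The follicle exceeded the basal sum in 12 of 12 libraries (2.33 ± 0.26, adjusted p = 5.4e-06) and the suprabasal sum was the lower (-2.01 ± 0.30, adjusted p = 2.89e-05). The order follicle, basal, suprabasal for Mycn and suprabasal, basal, follicle for Myc thus ran in opposite directions, on few molecules at E14.5, where the follicle sums of both genes held 2 to 20 UMIs.

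Ccnd1 (ENSMUSG00000070348, GRCm38 chromosome 7, bases 144929931 to 144939925) fell from follicle to basal to suprabasal cells. Its level ran from 80.5 to 386 CPM with a median of 252 in the follicle, from 22.2 to 200.1 CPM with a median of 57.5 in basal and from 9.56 to 42.8 CPM with a median of 26.7 in suprabasal cells. The follicle was above basal in 12 of 12 libraries (1.64 ± 0.11, adjusted p = 3.46e-08) and suprabasal below basal in 12 of 12 (-1.23 ± 0.18, adjusted p = 2.66e-05). Ccnd2 (ENSMUSG00000000184, GRCm38 chromosome 6, bases 127125162 to 127152193) was highest in basal cells, at 825 to 1655 CPM with a median of 945, against 69.1 to 224 CPM with a median of 122 in suprabasal cells (-2.85 ± 0.14, adjusted p = 4.95e-10). No suprabasal sum reached any basal sum, and the follicle was only slightly lower than basal cells (-0.48 ± 0.11, adjusted p = 0.00413), with 3 of 12 libraries the other way. Ccnd3 (ENSMUSG00000034165, GRCm38 chromosome 17, bases 47505051 to 47599691) was the flattest of the D cyclins. It was a little higher in suprabasal cells (0.25 ± 0.09, adjusted p = 0.0193), in 8 of 12 libraries, and a little lower in the follicle (-0.38 ± 0.07, adjusted p = 0.000563). The suprabasal call of Ccnd3 was lost with WT libraries alone (0.18), with classes made without integration (0.24) and in G1 cells (0.17), the follicle call with WT libraries alone (-0.31), and the follicle call of Ccnd2 without integration (-0.54), while in G1 cells that Ccnd2 difference was -0.76.

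Trp53 (ENSMUSG00000059552, GRCm38 chromosome 11, bases 69580359 to 69591873) was lower in suprabasal than in basal cells in every library (-0.76 ± 0.05, adjusted p = 4.64e-09), at 48.2 to 185 CPM with a median of 117 against 97.2 to 323 CPM with a median of 236. In the follicle, at 141 to 309 CPM with a median of 246, its difference from basal cells did not pass (0.01 ± 0.07, adjusted p = 0.929). Mdm2 (ENSMUSG00000020184, GRCm38 chromosome 10, bases 117688875 to 117710758) went the other way, higher in the suprabasal sum of 12 of 12 libraries (0.66 ± 0.08, adjusted p = 3.15e-06), at 19.7 to 29.3 CPM with a median of 27.2 against 14.2 to 24.9 CPM with a median of 18.3. Its follicle level was above basal in 11 of 12 libraries without passing the test (0.21 ± 0.11, adjusted p = 0.373). Cdkn1b (ENSMUSG00000003031, GRCm38 chromosome 6, bases 134920401 to 134925513) was lower in suprabasal cells (-0.59 ± 0.10, adjusted p = 0.000129) and not called between follicle and basal cells (0.15 ± 0.15, adjusted p = 0.499). In G1 cells alone its suprabasal difference was -0.46 and did not pass. RNA released from other cells could add to these levels. An upper limit on the share that fibroblasts (before birth) or melanocytes (at P0) could give, set from the transcripts of their marker genes found in each epithelial class, had a median of 0.151% of the level for Cdkn1a in suprabasal cells and 8.50% for Ccnd1 there, with a highest value of 44.5% for the latter. RNA freed from other keratinocytes was not tested.

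**Figure D1:**
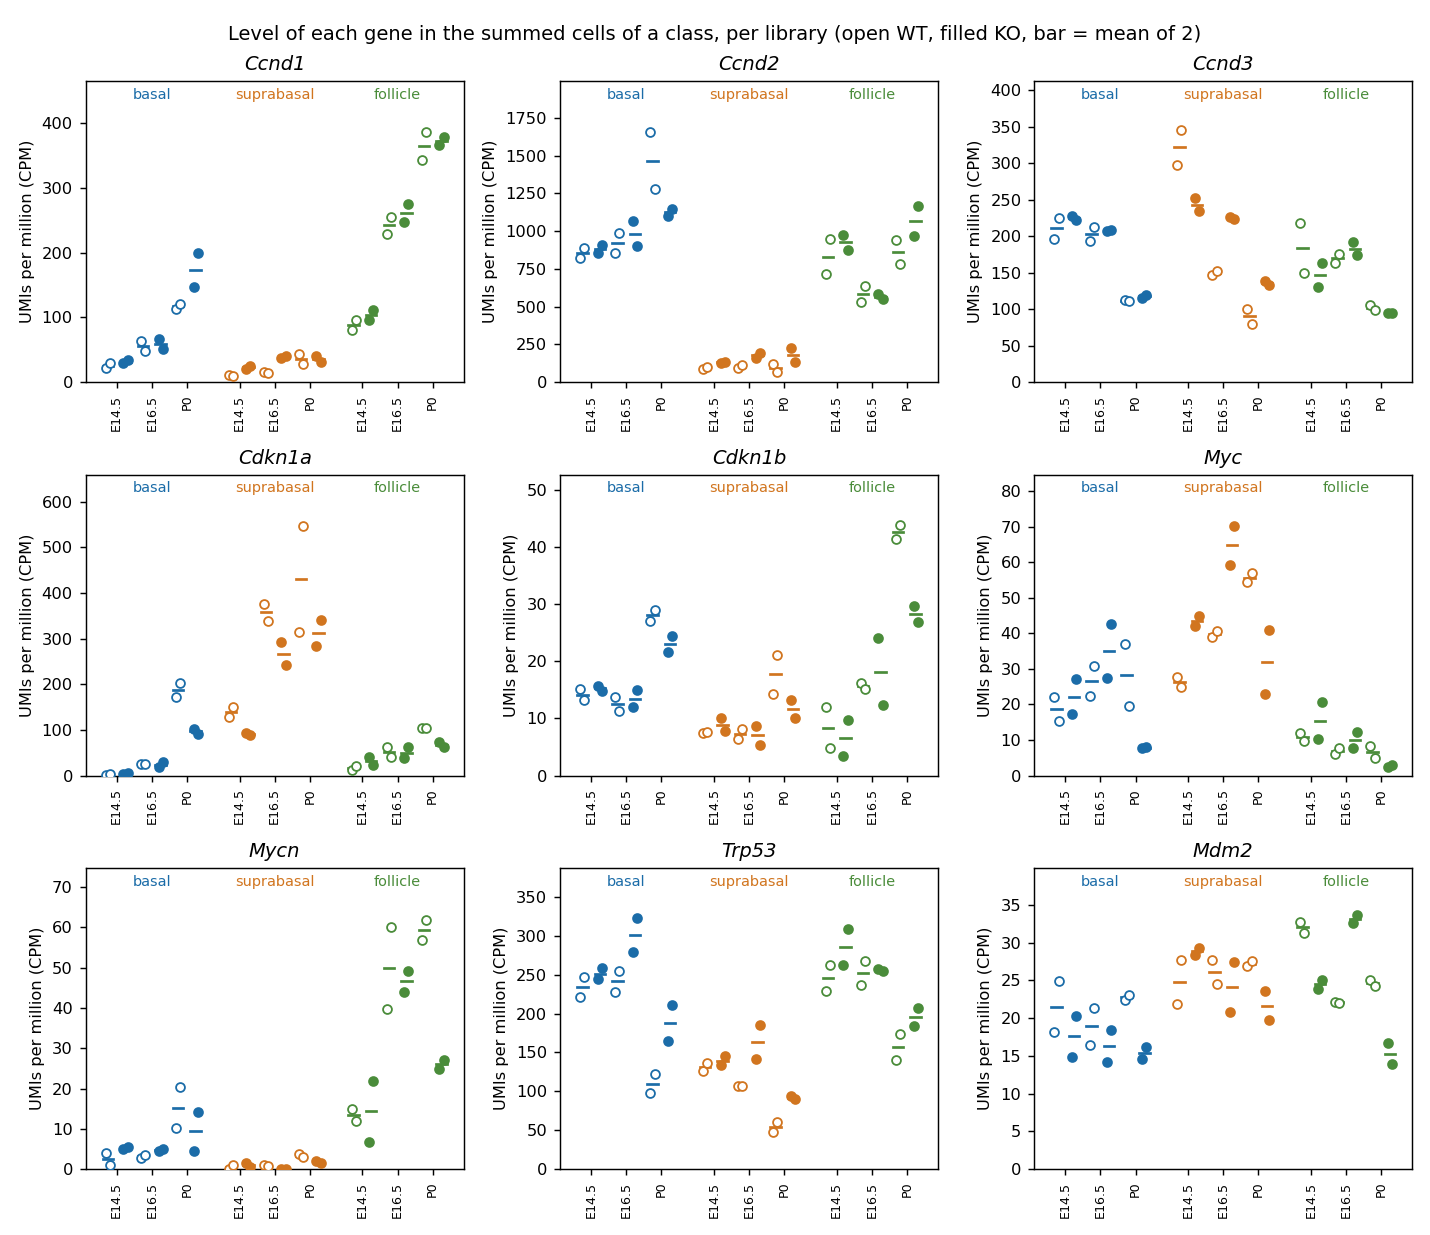
Level of 9 of the genes in CPM in the basal, suprabasal and follicle sums of each of the 12 libraries, by age. Each point is 1 library, open for WT and filled for Grhl3-/- (KO), and each bar is the mean of 2. Cdkn1a lies higher in suprabasal than in basal cells, Ccnd1 and Mycn lie highest in the follicle, and Ccnd2 stands at 825 CPM or more in every basal sum.

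Across all named classes, with the parts of the follicle joined, the peaks depended on age, and medians over the libraries of an age were ranked. Ccnd1 was highest in Schwann cells before birth, at 254 to 394 CPM over 8 libraries, a range that overlapped that of endothelial cells at 268 to 317 CPM, and in the follicle at P0. At E14.5 the dermal condensate, at 264 to 384 CPM, overlapped Schwann cells too, at 254 to 353. Ccnd2 was highest in basal cells at E16.5 and P0 and in the follicle at E14.5, where the medians over 4 libraries were 912 CPM in the follicle and 869 in basal cells. The matrix and inner sheath alone, at 1351 to 1689 CPM of Ccnd2 in WT at P0, overlapped basal cells at 1276 to 1655. In Grhl3-/- at P0 that part, at 1556 to 1849 CPM, lay above basal cells at 1101 to 1149. Ccnd3 was highest in muscle before birth, at 377 to 769 CPM, followed by fibroblasts, and in fibroblasts at P0. Cdkn1a was highest before birth in the dermal condensate, the cells that signal to the growing follicle, at 172 CPM at E14.5 and 773 at E16.5, with muscle next, and at P0 in sebaceous cells, at 339.8 to 515 CPM, within the range of suprabasal cells. Cdkn1b was highest in neurons at E14.5, at 25.2 to 38.8 CPM over 3 libraries, in endothelial cells at E16.5, at 17.9 to 22.4 CPM in a range that overlapped that of Schwann cells, and in the follicle at P0, at 26.9 to 43.8 CPM in a range that overlapped that of melanocytes. Myc was highest in suprabasal cells at each age. Over all ages and both genotypes it ran there from 22.8 to 70.2 CPM. That range overlapped that of pericytes, at 19.7 to 39.5 CPM over 8 libraries. Mycn was highest in the follicle at E16.5 and P0, but at E14.5 in neurons, at 12.2 to 50.4 CPM, overlapping the follicle at 6.83 to 21.8. Trp53 was highest in follicle and basal cells at each age, and it was low in erythroid cells, at 38.2 to 86.4 CPM, and in mast cells of E16.5, at 41.0 to 67.1 CPM. These medians join the genotypes. In WT alone at P0 basal cells, at 97.2 to 123 CPM of Trp53, overlapped T cells at 102 to 138 and melanocytes at 107 to 116. Mdm2 was highest in neurons at E14.5, at 33.6 to 55.0 CPM, in the dermal condensate at E16.5, at 35.5 to 43.8, and in Merkel cells at P0, at 38.7 to 55.1 CPM over 3 libraries. Each of these orders is a description across classes that share libraries and differ in depth.

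**Figure D2:**
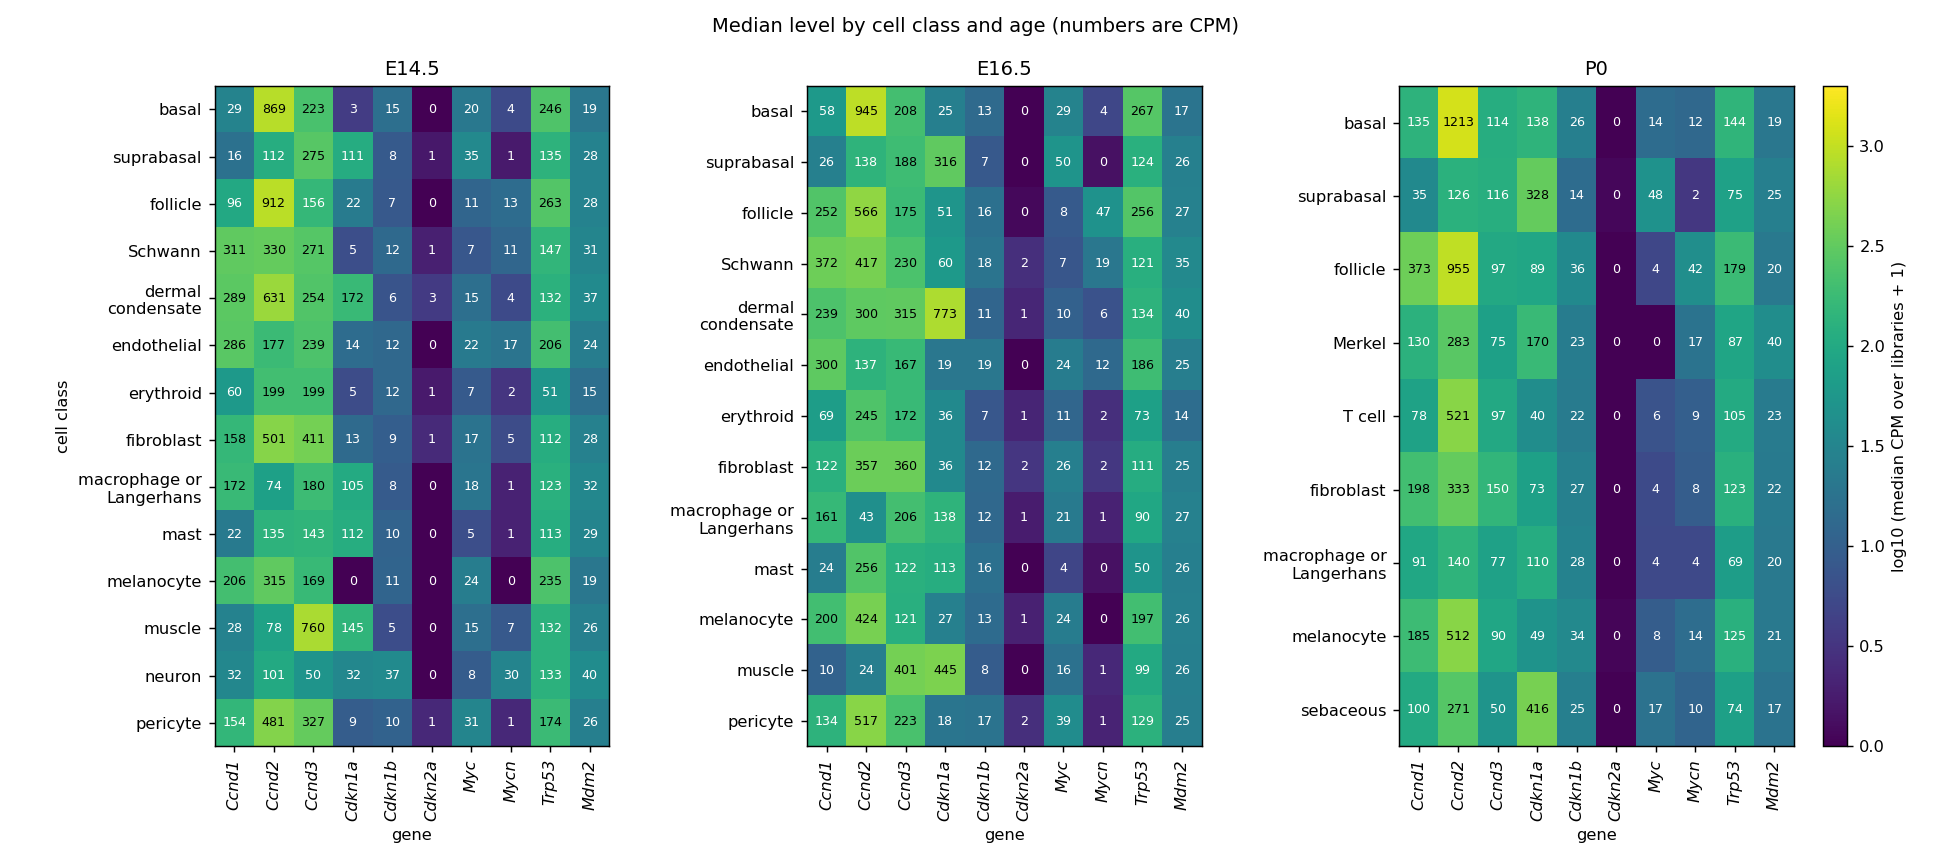
Median level over libraries of each of the 10 genes in every named cell class, 1 panel an age, for Chromium version 2 libraries with at least 20 cells of the class. The parts of the follicle are joined. Colour is log10 of the median CPM plus 1, and the number in a cell is the median CPM. Cdkn1a has its highest cell in the dermal condensate of E16.5, at 773 CPM, Ccnd3 in muscle of E14.5, at 760.3, and Mycn in the follicle of E16.5, at 46.6, while no Cdkn2a cell is above 2.65.

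Cdkn2a (ENSMUSG00000044303, GRCm38 chromosome 4, bases 89274471 to 89294653) was nearly silent in the epithelium. The basal sums of the 12 libraries held 1 UMI of it, the follicle sums 4 and the suprabasal sums 18, together 23. Pooled, this is 0.0138 CPM in basal cells with an exact 95% Poisson interval from 0.000348 to 0.0767, and 0.284 CPM in suprabasal cells with an interval from 0.168 to 0.448, both covering counting error alone. Fibroblasts of the 8 embryonic libraries held 383 UMIs, 22 to 72 in each, and the dermal condensate stood at 0.73 to 4.13 CPM. Both Cdkn2a products end in the same exons, so counts from the 3′ end cannot tell them apart.

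Dividing cells, called from S phase and G2/M gene scores that contain none of the genes described here, were compared with the other cells of the same class and library. No minimum number of cells was set for these sums, and some were small. At E14.5, 82 of 90 basal cells of the WT library 1 and 108 of 116 of the Grhl3-/- library 1 were called dividing. Few other cells were left there. Ccnd1, Cdkn1b and Trp53 were higher in dividing cells of all 3 classes and Cdkn1a was lower in all 3. Of 8 members tested in each class, 5 passed in basal cells, where 25.1% of all genes did, 6 in suprabasal cells, where 48.0% did, and 5 in the follicle, where 54.4% did. The share of cells called dividing fell with age in suprabasal WT cells, at 59.6 to 63.1%, 22.4 to 26.3% and 2.87 to 4.04% at E14.5, E16.5 and P0. It was 36.7 to 40.4% in basal and 67.4 to 77.7% in follicle cells of WT at P0. The score reads a range, not a cell type, and its limit matters to the calls below.

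Cdkn1a fell in dividing follicle cells by 1.78 on the log2 scale (SE 0.10, adjusted p = 8.33e-14), in 10 of 12 libraries. In WT follicle cells at P0 it was 69.7 and 65.2 CPM in dividing and 247 and 222 CPM in other cells. The follicle class is mixed in this gene, which in WT at P0 was at 39.3 and 28.4 CPM in the outer follicle, 227 and 237 in the matrix and inner sheath and 350.0 and 402 in the upper follicle, and the part of that mix in the differences with division was not tested. In suprabasal cells it was lower in all 12 libraries (-1.05 ± 0.08, adjusted p = 5.75e-09), or by less with the core genes described below, at -0.43. At P0 in WT those cells had 222 and 377 CPM when dividing and 320.1 and 555 when not. In these WT libraries of P0 the dividing suprabasal cells, only 28 and 21 in number, thus held more Cdkn1a than basal cells, at 172 and 203 CPM. In basal cells it was lower in 8 of 12 libraries (-0.50 ± 0.08, adjusted p = 2.07e-06), and with cells called dividing by 3 or more UMIs of a core of 12 proliferation genes it was 0.05, turned in direction and not past the threshold.

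Ccnd1 and Ccnd2 had their largest differences with division in suprabasal cells. There Ccnd1 rose in dividing cells (1.48 ± 0.23, adjusted p = 2.75e-05), in 11 of 12 libraries, and Ccnd2 rose as well (1.24 ± 0.23, adjusted p = 0.000197). The Ccnd2 difference was 0.65 with the core genes and 1.93 with WT libraries alone. In WT at P0 Ccnd2 stood at 586 and 393 CPM in dividing suprabasal cells, of which there were 28 and 21. In other suprabasal cells it stood at 93.7 and 52.0 CPM. In basal cells Ccnd1 rose less (0.34 ± 0.08, adjusted p = 0.00148), Ccnd2 did not pass (-0.08 ± 0.05, adjusted p = 0.264), and the Ccnd1 call there, like that in the follicle (0.39 ± 0.07, adjusted p = 9.38e-05), was lost with the core genes, at -0.06 and 0.02. The follicle difference of Ccnd1 was 0.23 with classes made without integration. Ccnd3 passed in none of the 3 classes, at -0.03 ± 0.06 in basal, 0.11 ± 0.08 in suprabasal and 0.03 ± 0.07 in follicle cells.

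Cdkn1b, whose product inhibits cyclin-kinase complexes, rose with division in basal (0.42 ± 0.12, adjusted p = 0.00901), suprabasal (0.60 ± 0.14, adjusted p = 0.00193) and follicle cells (0.44 ± 0.09, adjusted p = 0.000108). The suprabasal call was lost with the core genes (0.28), and the basal one with DESeq2 (0.39), without the P0 Grhl3-/- library 1 (0.39) and with WT libraries alone (0.32). Trp53 rose in 12 of 12 libraries in each class, by 0.33 ± 0.06, 0.54 ± 0.06 and 0.27 ± 0.05, and all 3 calls were lost with the core genes, at 0.10, 0.19 and 0.11. Myc fell in dividing basal cells (-0.65 ± 0.12, adjusted p = 4.06e-05) and Mycn rose in dividing follicle cells (0.83 ± 0.09, adjusted p = 4.31e-08). Mdm2 fell in dividing suprabasal cells (-0.32 ± 0.10, adjusted p = 0.01). With the core genes these Myc and Mdm2 calls were lost as well, at -0.25 and -0.18. That of Mdm2 was also lost with WT libraries alone, at -0.24, and with classes made without integration, at -0.17.

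**Figure D3:**
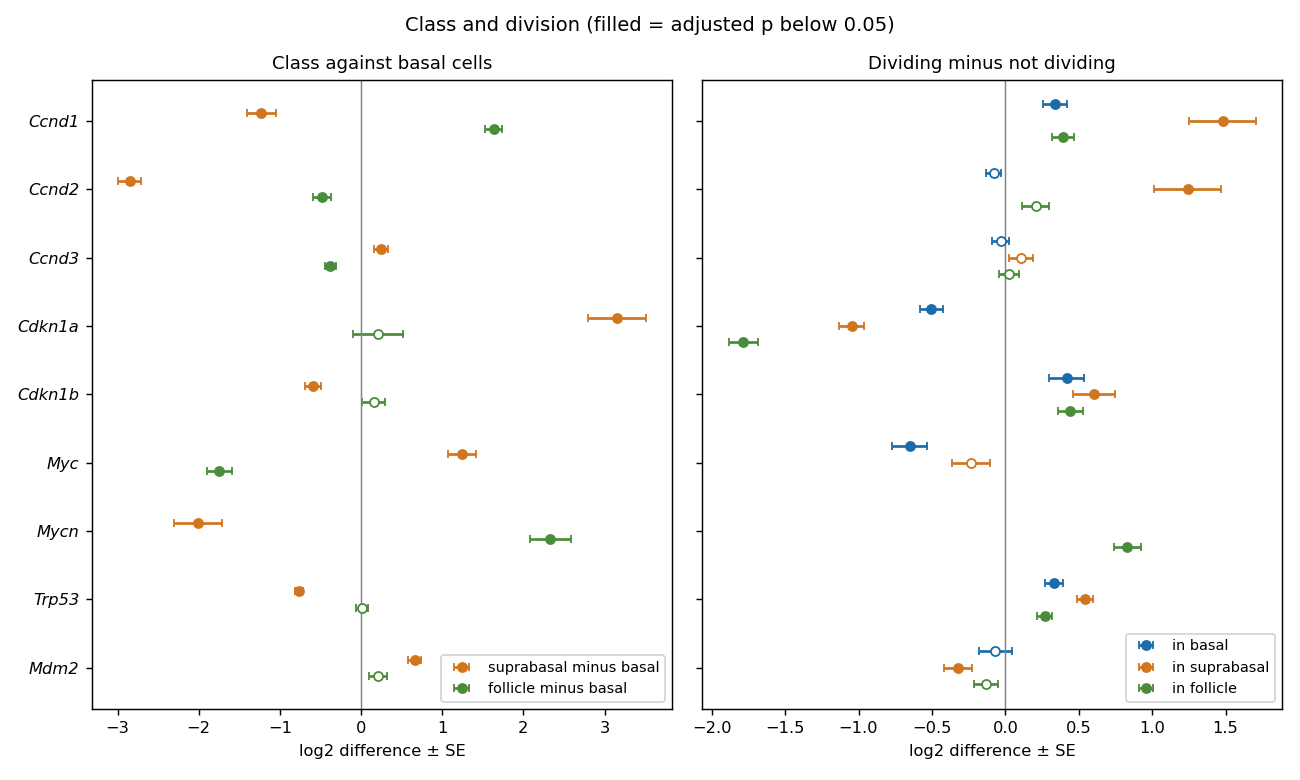
Fitted log2 differences with their standard errors for each gene, suprabasal minus basal and follicle minus basal on one side and dividing minus other cells of the same class on the other, over 12 libraries. Filled points passed the threshold. Cdkn1a is the gene furthest to the right between suprabasal and basal cells, and it lies to the left of 0 in the dividing cells of each class.

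In WT, Cdkn1a and Ccnd1 climbed from age to age in basal cells. From E14.5 to E16.5, both from whole skin, 2 of 9 members changed in basal cells, where 13.6% of all genes did, 3 of 9 in suprabasal cells (21.9%) and 3 of 9 in the follicle (5.63%). Cdkn1a rose in basal cells (3.48 ± 0.42, adjusted p = 2.05e-05) on the few molecules given above and in suprabasal cells (1.60 ± 0.22, adjusted p = 0.00029). In suprabasal G1 cells alone its rise was 0.93, and the share of dividing cells among them had fallen between these ages as given above. Ccnd1 rose in basal cells (1.17 ± 0.22, adjusted p = 0.00169), from 22.2 and 29.1 to 63.2 and 47.4 CPM. In the follicle it rose from 80.5 and 96.4 to 229.5 and 255 CPM (1.45 ± 0.16, adjusted p = 2.53e-05). Mycn rose there too, from 14.9 and 12.05 to 39.7 and 60.2 CPM (1.90 ± 0.41, adjusted p = 0.00991), and Ccnd2 fell (-0.51 ± 0.14, adjusted p = 0.0429). Suprabasal Myc rose (0.85 ± 0.25, adjusted p = 0.028) and suprabasal Ccnd3 fell (-0.87 ± 0.13, adjusted p = 0.000755). The WT follicle sums at E14.5 rest on 37 and 42 cells. Of these calls that of follicle Mycn was lost without either E14.5 library, at 2.09 and 1.72. The call of follicle Ccnd2 was lost without the E14.5 library 2, at -0.31, or without either E16.5 library, at -0.39 and -0.63, and it was -1.67 with classes made without integration. That of suprabasal Myc was lost without any 1 of the 4 libraries, at 0.74 to 0.95, and in G1 cells, at 0.88.

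Between E16.5 and P0 the tissue changed from whole skin to epidermis and the time in Dispase grew longer. The change of age cannot be told apart from these. Of 9 members 7 changed in basal cells (59.2% of all genes), 6 in suprabasal cells (47.9%) and 6 in the follicle (49.7%). In all 3 classes Ccnd1 and Cdkn1b rose and Ccnd3 and Trp53 fell. Trp53 fell in basal cells from 228 and 255 to 97.2 and 123 CPM (-1.13 ± 0.13, adjusted p = 1.68e-06), in suprabasal cells from 107 and 106 to 48.2 and 60.6 (-0.83 ± 0.13, adjusted p = 0.000322) and in the follicle from 236 and 267 to 141 and 173 (-0.61 ± 0.12, adjusted p = 0.000519). Cdkn1b rose in basal cells from 13.7 and 11.2 to 27.1 and 29.0 CPM (1.18 ± 0.16, adjusted p = 9.9e-06) and by 1.40 ± 0.25 and 1.51 ± 0.21 in the other classes. These are steps in which both WT libraries of one age lay outside those of the other. Cdkn1a rose further in basal cells (2.89 ± 0.18, adjusted p = 1.22e-09) and in the follicle (1.09 ± 0.20, adjusted p = 0.00031). Ccnd1 rose by 1.09 ± 0.16 in basal, 1.39 ± 0.22 in suprabasal and 0.66 ± 0.11 in follicle cells, and Ccnd2 rose in basal cells (0.67 ± 0.13, adjusted p = 0.000262) and the follicle (0.64 ± 0.14, adjusted p = 0.000995). Mycn rose in basal (2.24 ± 0.47, adjusted p = 0.000552) and suprabasal cells (2.07 ± 0.55, adjusted p = 0.00921), where the first was lost with classes made without integration, at 0.64, and the second without the E16.5 library 2, at 1.99 and with DESeq2, at 2.09, and the second was fitted at 7.21 with those other classes. Suprabasal Myc rose (0.62 ± 0.22, adjusted p = 0.0324), a call lost without any 1 of the 4 libraries, at 0.59 to 0.67. It was lost too in G1 cells, without integration and without a P0 cluster led by Krt6a and Sprr2a3, at 0.65, 0.53 and 0.62. The follicle sums also changed their make-up. No cluster of E16.5 was named matrix and inner sheath, while at P0 744 and 685 WT cells were, beside 2156 and 2085 of the outer follicle. In the outer follicle alone WT Cdkn1a was 27.4 and 24.9 CPM at E16.5 and 39.3 and 28.4 at P0, with both P0 values above those of E16.5. Ccnd2 there was 573 and 674 CPM at E16.5 and 737 and 632 at P0, which overlap. The matrix and inner sheath of P0 held 227 and 237 CPM of Cdkn1a and 1689 and 1351 of Ccnd2, and the part of the make-up in the follicle differences was not tested. The share of dividing cells in WT fell between these ages in basal and suprabasal cells, as given above, and its part was not tested. In G1 cells alone the follicle difference of Ccnd2 was 0.41 and did not pass. Those of Ccnd1 and Cdkn1b in the follicle were then 1.22 and 0.98, and that of Cdkn1b in basal cells was 1.98. With classes made without integration Ccnd1 rose by 0.57, 2.72 and 0.41 in basal, suprabasal and follicle cells. Follicle Ccnd2 and Cdkn1a then rose by 1.48 and 1.94, and suprabasal Trp53 fell by 0.50 on the log2 scale. Summed marker transcripts of erythroid cells in these classes were 1892 to 12089 CPM in the E16.5 libraries and 1 to 10 CPM at P0, and those of fibroblasts 296 to 724 CPM before birth and 1 to 24 CPM at P0. Their part in the age differences was not tested.

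Before birth 1 call was made between genotypes among these genes, Ccnd1 in suprabasal cells at E16.5. At E14.5 no member passed in any class, where 0.00845% of all genes did in basal, 1.58% in suprabasal and 0.0% in follicle cells. At an unadjusted p under 0.05 there were 468 genes and 0 members in basal cells and 661 genes and 0 members in the follicle, where DESeq2 called 3 and 0 genes. In suprabasal cells 1633 of 11707 genes were under an unadjusted 0.05, among them the members Ccnd1, Myc, Cdkn1a and Ccnd3. DESeq2 called 253 genes and 1 member there. Without the filter on low counts 3 members passed there, and with the libraries of E14.5 fitted alone 5 did. Over all alternatives 17 to 982 genes were called in this comparison. Ccnd1 in these cells was 11.4 and 9.56 CPM in WT and 20.9 and 25.6 in Grhl3-/- (1.20 ± 0.28, adjusted p = 0.0524), with both Grhl3-/- libraries above both of WT.

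At E16.5 no member passed in basal cells, where 0.389% of all genes did, or in the follicle (0.0653%). At an unadjusted p under 0.05 basal cells had 1118 genes and 0 members, and the follicle 465 genes and 1 member, Mdm2. DESeq2 called no member in either. In suprabasal cells 1 of 9 passed, where 5.71% of all genes did, and it was again Ccnd1, at 15.2 and 14.4 CPM in WT and 37.3 and 39.7 CPM in Grhl3-/- (1.26 ± 0.25, adjusted p = 0.0123), 2.40 times the WT level. The groups did not overlap, but the call was lost when any 1 of its 4 libraries was left out, with adjusted p between 0.0567 and 0.0981. In G1 cells alone it was 1.38 and did not pass. Trp53 was at 107 and 106 CPM in WT and 142 and 185 in Grhl3-/- (0.49 ± 0.13, adjusted p = 0.0549). Mycn had 4 and 6 UMIs in the WT suprabasal sums and none in those of Grhl3-/-, where 3 counts would be 1.24 and 2.29 CPM, so no fold is given.

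The composition of the suprabasal sums moved with genotype at the same time. Dividing cells were 59.6 to 63.1% of WT and 39.8 to 41.1% of Grhl3-/- suprabasal cells at E14.5, 22.4 to 26.3% and 40.0 to 52.9% at E16.5, and 2.87 to 4.04% and 15.4 to 17.6% at P0. The 7 suprabasal markers summed to 75648 to 88450 CPM in WT and 33743 to 50810 in Grhl3-/- at E16.5, and to 59005 to 59656 and 25284 to 26975 at P0. The 7 basal markers in the suprabasal sums of P0 were 3784 to 3954 CPM in WT and 17415 to 19447 in Grhl3-/-. The part of these differences in the suprabasal results was not tested.

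At P0 Myc and Mdm2 fell and Trp53 rose in Grhl3-/- in all 3 epithelial classes. Genes differed widely between genotypes at this age, with 6 of 9 members passing in basal cells against 37.1% of all genes, 6 of 9 in suprabasal cells against 37.7% and 7 of 9 in the follicle against 37.6%. Groups of 2 libraries, 1 animal each, stand behind every value.

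Myc was at 36.9 and 19.5 CPM in the WT basal sums, from 366 and 195 UMIs, and at 7.70 and 8.01 CPM in those of Grhl3-/-, from 157 and 68 UMIs. It fell 3.61-fold (-1.85 ± 0.26, adjusted p = 4.33e-05), and the call held under each of 12 alternatives. The lowest WT level was above both Grhl3-/- levels, although the WT libraries differed from each other. In suprabasal cells Myc was 54.5 and 57.0 CPM in WT and 22.8 and 41.0 in Grhl3-/- (-0.89 ± 0.22, adjusted p = 0.00705), and in the follicle 8.18 and 5.04 in WT and 2.50 and 2.94 in Grhl3-/- (-1.22 ± 0.25, adjusted p = 0.00132). The class sums of the genotypes overlapped in none of the 3 classes. In the outer follicle, which held most follicle cells, they did overlap, at 4.71 and 2.29 CPM in WT and 1.40 and 2.51 in Grhl3-/-. In the matrix and inner sheath Myc was 10.4 and 9.17 in WT and 4.35 and 3.68 in Grhl3-/-, and in the upper follicle 33.3 and 17.6 and 6.97 and 5.85, on 131 and 143 WT cells against 79 and 38 of Grhl3-/-. The part of the make-up in the follicle fall of Myc was not tested. The suprabasal difference depended on the library, at -0.50 without the Grhl3-/- library 1 and -1.41 without library 2. With the libraries of P0 fitted alone it was -0.88 and did not pass. The effect at P0 differed from that at E16.5 in basal cells (-2.16 ± 0.40, adjusted p = 0.00209), where 1 of 9 members and 11.6% of all genes passed this test. At E16.5 basal Myc was 22.5 and 30.8 CPM in WT and 27.4 and 42.6 in Grhl3-/-. In suprabasal cells 2 of 9 members passed it, against 9.58% of all genes, Myc (-1.46 ± 0.32, adjusted p = 0.0152) and Ccnd1 (-1.34 ± 0.32, adjusted p = 0.0224). The test could not separate age from tissue or from the longer time in Dispase. The basal call held without any 1 of the 8 libraries. The suprabasal Myc call was lost without either WT library of E16.5, at -1.41 and -1.51, and that of Ccnd1 without any 1 of the 4 E16.5 libraries, at -1.36 to -1.32. In G1 cells neither passed, at -1.30 for Myc and -1.24 for Ccnd1, nor did Ccnd1 without a P0 cluster led by Krt6a and Sprr2a3, at -1.02. Between E16.5 and E14.5 the effects differed for no member in basal cells (0.0507% of all genes) and for 1 of 9 in suprabasal cells (1.66%), Ccnd3 (0.88 ± 0.19, adjusted p = 0.044). This last call was lost without any 1 of the 8 libraries, at 0.79 to 0.95, and in G1 cells, at 0.998.

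Mycn fell in the follicle of Grhl3-/- at P0, from 57.0 and 61.9 CPM in WT to 24.9 and 27.2 (-1.13 ± 0.16, adjusted p = 4.21e-05), 2.19-fold. In basal cells it was 10.2 and 20.3 CPM in WT and 4.51 and 14.3 in Grhl3-/-, overlapping ranges that did not pass (-0.83 ± 0.38, adjusted p = 0.0977). In the outer follicle Mycn was 66.4 and 75.1 CPM in WT and 27.4 and 31.1 in Grhl3-/-, and in the matrix and inner sheath 42.5 and 38.1 in WT and 22.2 and 19.3 in Grhl3-/-. Both parts had both Grhl3-/- libraries below both of WT. In the upper follicle the genotypes overlapped, at 13.2 and 13.9 in WT and 6.58 and 15.9 in Grhl3-/-.

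Trp53 rose in basal cells from 97.2 and 123 CPM in WT to 165 and 211 in Grhl3-/- (0.74 ± 0.13, adjusted p = 0.00036). In suprabasal cells it was 48.2 and 60.6 CPM in WT and 94.1 and 90.0 in Grhl3-/- (0.67 ± 0.13, adjusted p = 0.00177) and in the follicle 141 and 173 in WT and 184 and 207 in Grhl3-/- (0.37 ± 0.12, adjusted p = 0.0171). The rise went against the fall of Trp53 between E16.5 and P0 in WT, and the Grhl3-/- levels at P0 lay between those of WT at the 2 ages in basal and suprabasal cells. Mdm2 moved opposite to Trp53. It was 22.4 and 23.1 CPM in WT and 14.53 and 16.1 in Grhl3-/- basal cells (-0.59 ± 0.17, adjusted p = 0.0107), 25.0 and 24.2 in WT and 16.7 and 13.9 in Grhl3-/- in the follicle (-0.63 ± 0.13, adjusted p = 0.00119) and 26.9 and 27.5 in WT and 23.6 and 19.7 in Grhl3-/- in suprabasal cells (-0.42 ± 0.15, adjusted p = 0.0473). The suprabasal call was lost in 11 of 13 alternatives, among them leaving out any 1 of the 4 libraries, at -0.52 to -0.33. The basal call of Mdm2 was lost without the WT library 2, at -0.55, and the follicle call of Trp53 without the Grhl3-/- library 2, at 0.30, or the WT library 1, at 0.23.

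Cdkn1a, the other well known p53 target among the members, also fell where Trp53 rose. In basal cells it was 172 and 203 CPM in WT and 103 and 90.7 in Grhl3-/-, 1.96-fold lower (-0.97 ± 0.16, adjusted p = 0.000167), and in the follicle 105 and 105 in WT and 73.9 and 62.3 in Grhl3-/- (-0.56 ± 0.18, adjusted p = 0.0182). In suprabasal cells the ranges overlapped, with 315 and 546 CPM in WT and 285 and 340.1 in Grhl3-/- (-0.54 ± 0.21, adjusted p = 0.0569). Within the follicle Cdkn1a was 227 and 237 CPM in WT and 138 and 126 in Grhl3-/- in the matrix and inner sheath, against 350.0 and 402 in WT and 297 and 278 in Grhl3-/- in the upper follicle. In the outer follicle it was 39.3 and 28.4 CPM in WT and 31.2 and 27.0 in Grhl3-/-, with the genotypes overlapping. Cdkn1b fell in suprabasal cells (-0.69 ± 0.24, adjusted p = 0.0361), from 14.3 and 21.1 to 13.2 and 10.0 CPM, and in the follicle (-0.53 ± 0.16, adjusted p = 0.0128), from 41.4 and 43.8 to 29.7 and 26.9. Without the Grhl3-/- library 2 the follicle calls of Cdkn1a and Cdkn1b were lost, at -0.44 and -0.46, and so was the suprabasal call of Cdkn1b, at -0.55, which was also lost without the WT library 2, at -0.42.

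The D cyclins had no common direction at P0. Ccnd1 rose in basal cells and was not called in the other classes, from 113 and 122 to 148 and 200.1 CPM (0.54 ± 0.15, adjusted p = 0.00979). Ccnd2 fell in basal cells, from 1655 and 1276 to 1101 and 1149 CPM (-0.40 ± 0.13, adjusted p = 0.0213), and rose in suprabasal cells, from 118 and 69.1 to 224 and 133 (0.84 ± 0.26, adjusted p = 0.0224), and in the follicle (0.36 ± 0.13, adjusted p = 0.0409). The basal and the suprabasal levels of Ccnd2 thus lay closer together in Grhl3-/-. The basal Ccnd1 difference was 0.84 with classes made without integration. The basal calls were lost without the WT library 1, at 0.46 for Ccnd1 and -0.22 for Ccnd2, and without the Grhl3-/- library 2, at 0.36 and -0.38, and that of Ccnd2 also without library 1, at -0.41. The suprabasal Ccnd2 call was lost without the Grhl3-/- library 1, at 0.45, or the WT library 2, at 0.47, and was 1.302 without the WT library 1. The follicle Ccnd2 call was lost without the Grhl3-/- library 2, at 0.23, the WT library 2, at 0.24, or with classes made without integration, at 0.27. Matrix and inner sheath cells numbered 744 and 685 in WT and 1365 and 1313 in Grhl3-/-, beside 2156 and 2085 and 2916 and 2507 outer follicle cells, so the follicle sums differed in make-up between the genotypes. Within the matrix and inner sheath Ccnd2 was 1689 and 1351 CPM in WT and 1556 and 1849 in Grhl3-/-, which overlap, and in the outer follicle 737 and 632 in WT and 753 and 885 in Grhl3-/-. The part of the make-up in the follicle differences at P0 was not tested. Ccnd3 rose in suprabasal cells, from 100.2 and 80.0 to 138 and 133 CPM (0.50 ± 0.13, adjusted p = 0.0118), but without a cluster led by Krt6a and Sprr2a3, which held 127 and 137 suprabasal cells of Grhl3-/- and 52 and 42 of WT, the difference was 0.09 and did not pass. Leaving that cluster out was a choice made after seeing the data. Without it suprabasal Ccnd2 was 1.36, and the suprabasal calls of Cdkn1b and Mdm2 did not pass, at -0.72 and -0.45. The Ccnd3 call was also lost without the WT library 2, at 0.31. Immediate-early and heat shock genes that answer to dissociation were also higher in Grhl3-/- at P0, at 1858 to 2341 CPM in WT and 4349 to 4605 in Grhl3-/- for suprabasal cells, 2771 to 2924 and 3119 to 3846 for basal cells, and 1463 to 1592 and 2124 to 2265 for the follicle. Their part in the results at P0 was not tested. The share of dividing cells was 36.7 to 40.4% and 36.1 to 38.4% in basal cells of WT and Grhl3-/- and 67.4 to 77.7% and 79.5 to 80.9% in the follicle. In G1 cells alone several P0 calls did not pass. Their differences were then 0.34 for Ccnd2, -0.43 for Cdkn1a, -0.49 for Cdkn1b and 0.46 for Trp53 in the follicle, -0.28 for Ccnd2 and -0.41 for Mdm2 in basal cells, and 0.33 for Ccnd3 and -0.31 for Mdm2 in suprabasal cells, 7 smaller and 1 larger than in all cells. With DESeq2 4 calls did not pass while the differences stayed close, at -0.57 for Cdkn1a in the follicle, -0.59 for Mdm2 in basal cells, and -0.68 for Cdkn1b and -0.40 for Mdm2 in suprabasal cells. With the libraries of P0 fitted alone the suprabasal calls of Ccnd2, Ccnd3, Cdkn1b, Myc and Mdm2 and the basal call of Ccnd2 did not pass, at 0.83, 0.50, -0.69, -0.88, -0.42 and -0.38.

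**Figure D4:**
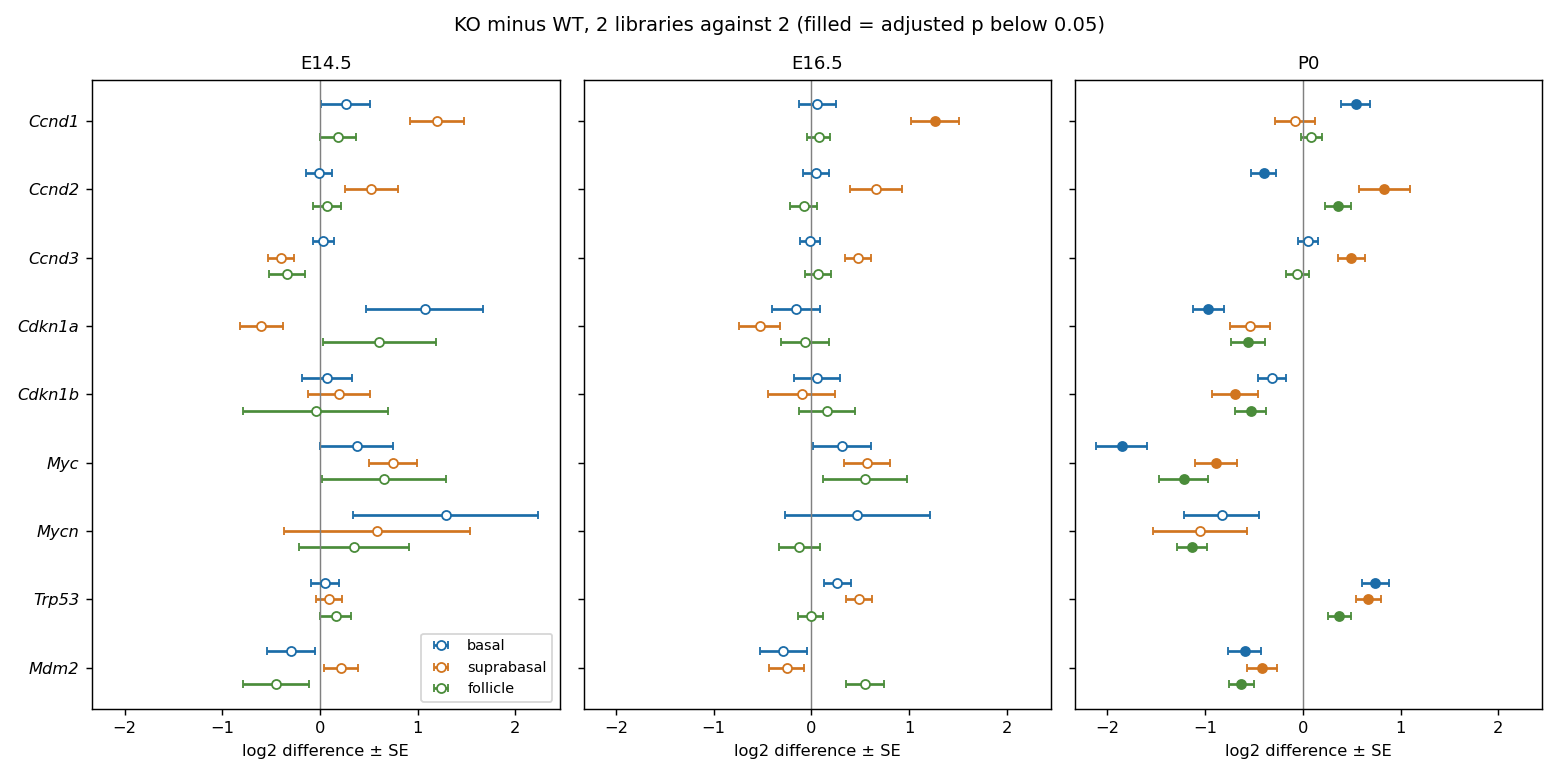
Fitted log2 difference, Grhl3-/- (KO) minus WT, with its standard error for each gene in basal, suprabasal and follicle cells at each age, from 2 libraries a group. Filled points passed the threshold, and Mycn in suprabasal cells at E16.5 is left out since one genotype had no count. Almost all filled points are at P0, where Myc and Mdm2 lie to the left and Trp53 to the right in each class.

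The P0 differences reached beyond the epithelium. In 7 classes with at least 20 cells in all 4 libraries, which were basal, suprabasal, follicle, sebaceous, melanocyte, T cell and a class of macrophages or Langerhans cells, Mdm2 was lower in both Grhl3-/- libraries than in both WT libraries in 7 of 7. Of 9952 genes with a mean of at least 5 CPM, 4.36% were lower without overlap in 7 of 7. Mdm2 was 26.8 and 33.2 CPM in WT and 13.4 and 14.1 in Grhl3-/- in macrophages or Langerhans cells, 23.1 and 24.8 CPM in WT and 11.2 and 18.6 in Grhl3-/- in melanocytes and 25.0 and 31.0 CPM in WT and 15.2 and 20.4 in Grhl3-/- in T cells. In sebaceous cells it was 22.8 and 23.2 CPM in WT and 5.63 and 10.8 in Grhl3-/-, with as few as 4 UMIs in a library. Trp53 was higher without overlap in 6 of 7 classes, where 8.31% of genes were higher in 6 or more. It was 63.9 and 64.0 CPM in WT and 73.1 and 90.7 in Grhl3-/- in macrophages or Langerhans cells and 107 and 116 CPM in WT and 134 and 146 in Grhl3-/- in melanocytes, and T cells were the class with overlap, at 102 and 138 CPM in WT and 98.2 and 107 in Grhl3-/-. Myc and Cdkn1b were each lower without overlap in 5 of 7 classes, where 21.2% of genes were lower in 5 or more, and Cdkn1b was higher in macrophages or Langerhans cells. The other members were less uniform. Mycn was lower without overlap in 4 classes, Cdkn1a in 3, Ccnd3 in 4 and Ccnd2 in 1. Ccnd3 was higher in 2, Ccnd2 in 3, Ccnd1 in 2 and Cdkn2a, on few molecules, in 1. Shares of all genes were not taken at these counts, so they cannot be read as particular to these members. The 7 classes come from the same 4 animals and are not replicates of each other, and what RNA freed in these suspensions adds to the smaller classes was not tested.

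**Figure D5:**
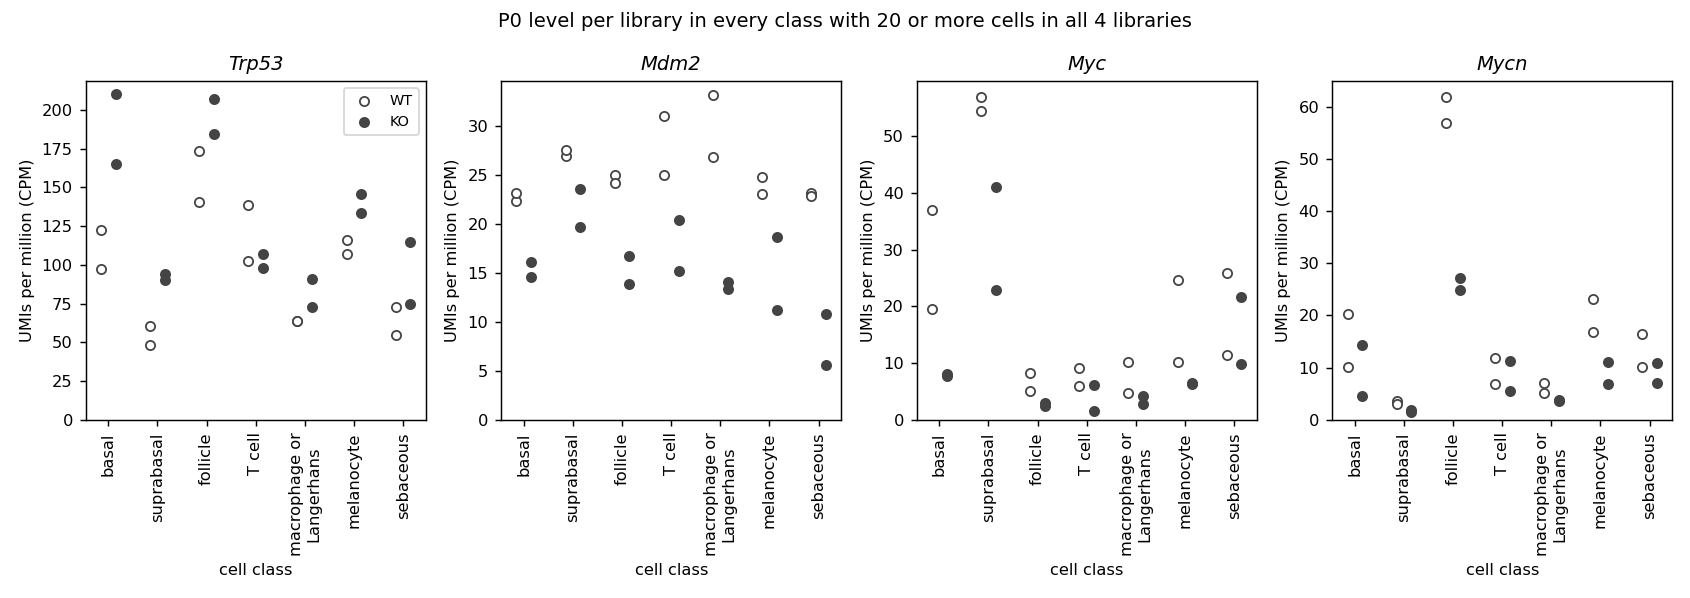
Level of Trp53, Mdm2, Myc and Mycn in CPM in the 7 cell classes of P0 skin that hold at least 20 cells in each of the 4 libraries, with 2 open points for WT and 2 filled points for Grhl3-/- (KO) in each class. The Grhl3-/- points of Mdm2 lie below the WT points in all 7 classes and those of Trp53 lie above them in 6.

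Other genes of the same pathways were read from lists chosen by function, with earlier results of these data known. Of 21 tested genes of the G1 machinery, which holds the E-type cyclins, the kinases, RB and the E2F factors, 4 were higher and 12 lower in suprabasal than in basal cells, where 64.0% of all genes were called, with a median log2 difference of -0.53 against -0.01 over all genes. Rb1, the brake on E2F, was higher (1.27 ± 0.16) and E2f1 lower (-0.98 ± 0.12). In dividing cells 10 of 20 G1 genes rose in basal, 13 of 16 in suprabasal and 12 of 15 in follicle cells, and none fell, where 25.1%, 48.0% and 54.4% of all genes were called. The cells were called dividing by scores of cell cycle genes, so the rise of this list is not independent of that call. Cyclin E1, which takes over from the D cyclins, had the largest difference with division in each class (Ccne1 2.39 ± 0.19, 2.91 ± 0.13 and 2.85 ± 0.15). In Grhl3-/- at P0, 7 of 22 rose and 1 fell in basal cells, 9 of 21 rose and 1 fell in suprabasal cells, and 6 of 21 rose and 1 fell in the follicle, where 37.1%, 37.7% and 37.6% of all genes were called, so the share of the list called was near that of all genes in basal cells and the follicle. Ccne1 rose in all 3 (1.55 ± 0.26, 4.08 ± 0.43 and 1.303 ± 0.155), and so did E2f1 (0.93 ± 0.20, 2.04 ± 0.25 and 0.92 ± 0.16).

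Between genotypes at P0 the calls of the other CDK inhibitors were in the direction opposite to those of Cdkn1a and Cdkn1b. Cdkn1a had no such call in suprabasal cells and Cdkn1b none in basal cells. In Grhl3-/- at P0, 4 of 6 rose in basal, 4 of 7 in suprabasal and 3 of 6 in follicle cells, and none fell, where 37.1%, 37.7% and 37.6% of all genes were called. Cdkn1c, a relative of Cdkn1a and Cdkn1b, rose by 1.57 ± 0.17 in basal, 4.97 ± 0.32 in suprabasal and 0.47 ± 0.15 in follicle cells. In WT it had fallen from E16.5 to P0 by 3.35 ± 0.17 in basal cells on the log2 scale. Cdkn2b, which lies next to Cdkn2a, was higher in suprabasal than in basal cells (5.70 ± 0.24). Cdkn2c rose in dividing basal (2.54 ± 0.14) and suprabasal cells (3.53 ± 0.21).

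Genes known as p53 targets had calls in both directions in Grhl3-/- at P0, as all genes did, with 5 of 20 higher and 5 lower in basal cells, 6 and 6 of 20 in suprabasal cells, and 4 and 5 of 18 in the follicle, against 37.1%, 37.7% and 37.6% of all genes called, and with the members Cdkn1a and Mdm2 not counted. Trp53inp1, which enhances p53 activity, fell (-2.85 ± 0.18, -2.81 ± 0.20 and -2.15 ± 0.17), and so did Sesn1, a stress gene that restrains growth signalling (-1.10 ± 0.18, -1.64 ± 0.24 and -1.27 ± 0.14). Gadd45a, a DNA damage response gene, rose in basal (1.88 ± 0.18) and suprabasal cells (1.95 ± 0.22), as did the pro-death gene Pmaip1 (1.62 ± 0.23 and 1.43 ± 0.18). Between suprabasal and basal cells 8 of 19 were higher and 3 lower, no larger a share than the 64.0% of all genes, among the higher Perp, a desmosome gene (1.66 ± 0.09). In dividing cells none rose while 6 of 15 fell in basal, 9 of 16 in suprabasal and 7 of 13 in follicle cells, where 25.1%, 48.0% and 54.4% of all genes were called in either direction. Among p53 regulators and relatives 1 of 12 rose and 3 fell in basal cells of Grhl3-/- at P0, 2 rose and 2 fell in suprabasal cells, and 1 rose and 4 fell in the follicle, shares near those of all genes. Trp63, the p53 relative needed for the epidermis, fell in each (-1.07 ± 0.12, -0.79 ± 0.17 and -0.95 ± 0.12).

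Genes known as MYC targets, mostly of ribosome production, had calls in both directions in Grhl3-/- at P0 apart from the follicle. There 15 of 20 rose and none fell, where 37.6% of all genes were called, with a median of 0.53 against -0.06 over all genes. In basal cells 8 rose and 2 fell (37.1% of all genes called), and in suprabasal cells 5 rose and 4 fell (37.7%). Odc1, of polyamine synthesis, rose by 2.04 ± 0.18, 2.12 ± 0.29 and 2.44 ± 0.24 in basal, suprabasal and follicle cells, and the glycolytic gene Ldha by 1.51 ± 0.13, 1.61 ± 0.17 and 1.94 ± 0.15. At E16.5, 7 of 20 rose in suprabasal cells of Grhl3-/-, where 5.71% of all genes were called, with Rrs1, of ribosome assembly, at 0.97 ± 0.21. Between suprabasal and basal cells 12 of 20 were higher and 1 lower, a share near the 64.0% of all genes. With division 7 of 20 MYC targets rose and 2 fell in basal cells, and 10 of 20 rose and 1 fell in suprabasal cells. In the follicle 15 of 19 rose with division and none fell, where 25.1%, 48.0% and 54.4% of all genes were called. The share of dividing follicle cells at P0 was higher in Grhl3-/-, as given above, and its part was not tested. Of the 12 partners and antagonists of MYC, 2 rose and 5 fell in basal and in suprabasal cells of Grhl3-/- at P0, and 1 rose and 5 fell in the follicle, against 37.1%, 37.7% and 37.6% of all genes called. The antagonist Mxd3 rose in basal (1.13 ± 0.17) and suprabasal cells (2.07 ± 0.35), and it also rose with division (3.07 ± 0.17 and 3.54 ± 0.14), while Mxd4 fell in the follicle (-1.18 ± 0.13). At E14.5 none of the G1, CDK inhibitor, p53 or MYC lists had a call between genotypes in basal or follicle cells, and suprabasal cells had 1, Perp (-0.63 ± 0.11).

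The genes whose levels ran most like those of a member were sought over 125 sums of at least 50 cells of a class and library, among 10566 genes, by Pearson's r of log2(CPM + 1), a description over sums that share libraries. For Ccnd1 these were Nrp2 (r = 0.83), Sema4c and Tax1bp3, for Ccnd2 Chd3 (r = 0.81), Ptprs and Farp1, and for Ccnd3 Cdkn1c (r = 0.86), Itm2a and Morf4l2. Cdkn1a ran with Cd44 (r = 0.60), Rb1 and Usp20, Cdkn1b with Ttf1 (r = 0.74), Son and Gpatch8, and Cdkn2a with Ddit4l (r = 0.73), Tbx18 and Itih5. Myc ran with Eif1a (r = 0.66), C330006A16Rik and Fabp5, and Mycn with Tspan18 (r = 0.80), Bach2 and Tbx1. Trp53 ran with Actl6a (r = 0.84), Clns1a and Srsf10, and Mdm2 with Txndc9 (r = 0.60), Nol12 and Thap7. Cdkn1a, Myc and Mdm2 had the weakest leading partners, and Ccnd3 and Trp53 the strongest.

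The single WT library of version 1 at P0 was not tested. For Cdkn1a and Mycn its class order was that of the version 2 WT libraries of P0. Cdkn1a was at 208 CPM in basal, 414 in suprabasal and 74.7 in follicle cells, and Mycn at 10.6, 6.50 and 132. Its follicle Mycn lay above that of both WT libraries of version 2. Ccnd2 was at 798 CPM in its basal and 1067 in its follicle cells, the reverse of the version 2 order in WT at P0.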

How the data were processed

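Dorsal skin was dissociated and cells were profiled with the Chromium 3′ droplet assay. The authors deposited, for each of 13 libraries, a table of raw UMI counts per gene and cell. The submitters' processing notes name Cell Ranger 1.3.1, Seurat and the mouse build mm10. Every column held 1 library, no column was left unused, and sample groups came from the labels.

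Cells were kept with 600 to 4800 detected genes in embryonic and 900 to 7700 in P0 libraries and at most 10% mitochondrial counts. The libraries of an age were integrated in Seurat 5.3.0 (canonical correlation, 3000 features, 30 principal components, 20 neighbours, resolution 1) without the genes described, the pathway genes or the cell cycle genes, and epithelial cells of E14.5 and E16.5 were clustered again at resolution 0.8. A cluster took the name of a marker list when at least 3 markers were found in 10% or more of its cells and its score reached 0.8, or for epithelial names 0.4 with a margin of 0.25. These limits were set after the scores were seen. Basal, suprabasal and follicle names were thus rebuilt and may differ from those of the study. Follicle joins the outer, matrix and inner sheath, and upper parts. No doublets were removed, and removing the top 5% of Scrublet scores (scanpy 1.11.5) was an alternative.

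UMI counts were summed per library and class with at least 20 cells. That limit was not set on the separate sums of dividing and of other cells within a class. The main test was edgeR 4.0.16 (quasi-likelihood, TMM scaling, its filter on low counts) over the 6 groups of age and genotype, or with the library as a block between classes and between dividing and other cells. Adjusted p-values are Benjamini-Hochberg values over all genes of a comparison, with a threshold of 0.05, and 24 comparisons were made. Values after ± are standard errors of the log2 difference. Each library is 1 animal, so 2 animals stand for each group, and the groups share 1 estimate of the spread. Cells were called dividing from S and G2/M scores. DESeq2 1.42.0, other scaling, no filter, a replicate block, each library left out, G1 cells, classes without integration and each age alone were alternatives. Counts for the comparison of genotypes in basal cells at P0 were simulated over 11537 genes, and 69.4% of 49 genes lowered and 68% of 50 genes raised by 1 on the log2 scale were recovered, against 93.75% of 48 and 100% of 50 at a log2 change of 2. Intervals and limits from counts cover counting error alone.

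The genes described, the pathway lists and the comparisons were chosen with earlier results of these data known. All 10 genes are named. Of each pathway list, genes named were among the up to 4 past the threshold with the largest difference and a mean log2 CPM of at least 3 in a comparison, and likeness named the 3 genes with the highest correlation among those with a mean of at least 5 CPM.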

Additional observations from a re-analysis of the deposited data

Results flagged for a closer look

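The difference between genotypes was itself different between ages for 4 gene and class pairs, each by edgeR's test of that difference with Benjamini-Hochberg adjustment. For Myc in basal cells the log2 difference, Grhl3-/- minus WT, was lower at P0 than at E16.5 by -2.16 (adjusted p = 0.00209). For Myc in suprabasal cells the same comparison gave -1.46 (adjusted p = 0.0152), and for Ccnd1 in suprabasal cells -1.34 (adjusted p = 0.0224). Ccnd3 in suprabasal cells had a difference that was higher at E16.5 than at E14.5 by 0.88 (adjusted p = 0.044). Whole skin was taken at E16.5 and epidermis at P0, with a longer time in Dispase. Age, tissue and digestion cannot be told apart in the first 3 values.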

How the results depend on the processing

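Of the calls of single members, repeated under the alternatives, 1045 kept their direction and stayed past the threshold, 115 kept their direction and did not pass, and 2 turned, both when cells were called dividing by the core genes in place of the phase score. These were the differences of dividing basal cells, at -0.063 for Ccnd1 and 0.053 for Cdkn1a. The counts of members called moved as follows, and the cause was not tested. For Grhl3-/- against WT in suprabasal cells of E14.5, with 0 called, there were 3 without a filter on low counts, 1 with DESeq2, 1 in G1 cells and 5 with the age fitted alone. At E16.5, with 1 called, there were 2 with RLE scaling, 3 without the filter, 0 in G1 cells and 3 with the age alone. At P0, with 6 called, there was 1 with the age alone and 3 without the Krt6a and Sprr2a3 cluster, and in the follicle of P0, with 7 called, 3 in G1 cells. Without integration the change of WT follicle from E14.5 to E16.5 had 5 in place of 3. The difference of the genotype effect between P0 and E16.5 had 3 without the filter and 2 without integration in place of 1 in basal cells, and 0 in G1 cells and 1 without the cluster in place of 2 in suprabasal cells. Between E16.5 and E14.5 it had 0 in G1 cells in place of 1 in suprabasal cells. With the core genes, division had 1 in place of 5 in basal, 3 in place of 6 in suprabasal and 3 in place of 5 in follicle cells. On class sums thinned to 292864 UMIs, 3 members in place of 4 were highest in the follicle, with Trp53 then highest in basal cells.

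Leaving out 1 library at a time gave 2 members changed from E14.5 to E16.5 in WT suprabasal cells (3 with all libraries) and 1 to 3 in the follicle (3), the 1 without the E14.5 library 2. From E16.5 to P0 it gave 4 to 6 in suprabasal cells (6) and 6 to 7 in the follicle (6). For Grhl3-/- against WT it gave 0 in suprabasal cells at E16.5 (1), and at P0 5 in basal cells (6), 2 to 6 in suprabasal cells (6), the 2 without the WT library 2, and 3 to 7 in the follicle (7), the 3 without the Grhl3-/- library 2. The difference of the effect between E16.5 and E14.5 had 0 in suprabasal cells (1). Between P0 and E16.5 it had 1 to 3 in basal cells (1), with 3 without the P0 Grhl3-/- library 1 or WT library 2 and 2 without the Grhl3-/- library 2, and 0 to 2 in suprabasal cells (2), with 0 without either E16.5 WT library and 1 without either E16.5 Grhl3-/- library. Division had 4 to 6 in basal (5), 6 in suprabasal (6) and 4 to 6 in follicle cells (5).

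Replicate numbers pair no animals by the labels, and the deviations of same-numbered WT and Grhl3-/- libraries correlated at -0.0472 to 0.0337. With the replicate block the members called were 2 in place of 1 for Grhl3-/- against WT in suprabasal cells of E16.5 and 0 in place of 1 for the difference of the effect between E16.5 and E14.5 in suprabasal cells, and other counts stayed within 1.5 times. The block lost 8 calls of single members, which were Cdkn1b and Mdm2 in suprabasal and Ccnd2 in follicle cells between genotypes at P0, Myc in suprabasal and Ccnd2 in follicle cells from E14.5 to E16.5, Myc and Mycn in suprabasal cells from E16.5 to P0, and Ccnd3 in the difference just named.

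The number of all genes called moved as well. Between genotypes it was 1 (1 to 21 over the alternatives), 46 (17 to 202) and 4387 (2838 to 4761) in basal cells at E14.5, E16.5 and P0, 185 (17 to 982), 668 (169 to 1143) and 4412 (2845 to 4684) in suprabasal cells, and 0 (0 to 33), 7 (3 to 80) and 4029 (1986 to 4715) in the follicle. From E14.5 to E16.5 it was 1607 (570 to 1980), 2558 (1062 to 2887) and 604 (213 to 1072) in the 3 classes, and from E16.5 to P0 7004 (3949 to 7369), 5611 (3711 to 5991) and 5328 (2663 to 5872). Suprabasal against basal cells had 6721 (4157 to 7734) and follicle against basal cells 2692 (1437 to 3746). Division had 2188 (1148 to 2426), 3813 (1209 to 4584) and 3944 (2728 to 5649). The difference of the effect between E16.5 and E14.5 had 6 (2 to 87) in basal and 194 (24 to 613) in suprabasal cells, and between P0 and E16.5 1373 (741 to 1779) and 1121 (494 to 1689).

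With 2 animals a group and low counts of Mycn, Cdkn2a and embryonic Cdkn1a, a p that misses the threshold does not show that levels were alike.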
